A study of Bos taurus with 12 samples.

Results

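The genes described here are those of antigen presentation and the interferon response in bovine muscle. They are 38 genes taken by name from a list: 10 of the MHC class I pathway, 6 of the class II pathway and 22 that interferons induce. Each was matched to the array's probes by its symbol, gene number or description, and the probe of highest mean signal stood for it. Of the 38, 35 had a probe of their own and 27 passed a filter on dim probes (a signal well above background on at least 4 of 12 arrays, whatever the group), among the 13653 genes tested. The 27 were all 10 class I genes, all 6 class II genes and 11 of the 22 interferon-induced genes.

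Nearly all nucleated cells cut proteins into peptides with the proteasome, carry the peptides into the endoplasmic reticulum and show them on MHC class I molecules to CD8 T cells. Class II molecules are loaded in endosomes of antigen-presenting cells and are read by CD4 T cells. Interferons raise both pathways through STAT and IRF transcription factors, and type I interferon also raises a set of antiviral genes. Healthy muscle fibres show little MHC class I, and much of the class II transcript in muscle is known to come from resident macrophages, dendritic cells and vessel cells.

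Messenger RNA was measured in biceps brachii, a muscle of the upper foreleg, of 12 male Bos taurus aged 18 to 20 months, with 1 Agilent 1-colour array per bull and 4 bulls in each of 3 groups. The dexamethasone+clenbuterol bulls were fed 0.66 mg of dexamethasone per head for 21 days. Clenbuterol was fed to them over 28 days in steps of 2, 4 and 6 mg a head (the first week, the second week, then the rest). The dexamethasone bulls were fed 0.75 mg per head for 42 days, and the control bulls were untreated. Dexamethasone is a synthetic glucocorticoid that damps inflammation, and clenbuterol is a beta-adrenergic agonist. A difference between the treatments may thus reflect the shorter and lower dexamethasone course, the clenbuterol or both, which cannot be told apart. The arrayed bulls were those of each group with the best RNA, and how long before slaughter feeding ended is not stated in the labels. All 15 skeletal muscle fibre markers, among them ACTA1, CKM and MB, were well above background on all 12 arrays.

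A level below is a log2 signal relative to the 75th percentile of its array, so a value of 0 is the signal of a spot at that percentile, and a change of 1 is a doubling. Levels of different genes come from different probes and are not set against each other. In whole muscle, fewer cells of a type and less RNA per cell cannot be told apart. The arrays were scanned on 4 days: day 2 holds replicates 1 to 3 of both treated groups and control replicate 4, and the other arrays are control replicates 1 to 3 (day 1), dexamethasone replicate 4 (day 3) and dexamethasone+clenbuterol replicate 4 (day 4). The 7 arrays of day 2 had 53.2% to 65.0% of spots well above background and the other 5 had 66.4% to 68.7%. Dexamethasone+clenbuterol replicate 4 was the highest of its group for 17 of the 27 genes described here, and dexamethasone replicate 1 for 16. Dexamethasone replicate 4 was the lowest of the 12 for 8 of 27, so counts are also given without these 3 arrays.

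No member passed the test in any comparison. In dexamethasone bulls against untreated controls, 0 of 27 members were called at a limma adjusted p under 0.05, against 0.615% of all genes tested. In dexamethasone+clenbuterol bulls the count was 0 of 27 against controls, where 0.0439% of all genes were called, and 0 of 27 against dexamethasone bulls, where 0.0146% were called. With so few calls over the whole array, a count of 0 among 27 genes is near the background in each comparison. The smallest adjusted p among members was 0.338 for IRF1 in dexamethasone against control, 0.241 for BOLA in dexamethasone+clenbuterol against control and 0.162 for CD74 in dexamethasone+clenbuterol against dexamethasone.

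The estimates lay mostly on one side in both comparisons of the dexamethasone+clenbuterol bulls. Against controls, 26 of 27 members had a log2 change above 0 and the median was 0.46, beside 53.8% of all genes and a median of 0.03. Against dexamethasone bulls, 24 of 27 were above 0 with a median of 0.36, beside 52.3% of all genes and a median of 0.02. In dexamethasone bulls against controls, 15 of 27 were above 0 with a median of 0.02, beside 54.7% and a median of 0.03. The 3 comparisons share groups, so they are not independent of each other, and neither are genes of one pathway. At an unadjusted p under 0.05, 2 members were higher in dexamethasone against control, 7 in dexamethasone+clenbuterol against control and 5 in dexamethasone+clenbuterol against dexamethasone, and none was lower. Over all genes 5.46%, 6.98% and 6.69% were higher and 6.88%, 5.15% and 4.33% lower at that level in these comparisons. The groups did not overlap, with the first-named group higher, for 1 of 27 members in dexamethasone against control (2.53% of all genes), for 5 in dexamethasone+clenbuterol against control (4.51%) and for 1 in dexamethasone+clenbuterol against dexamethasone (2.53%).

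**Figure D1:**
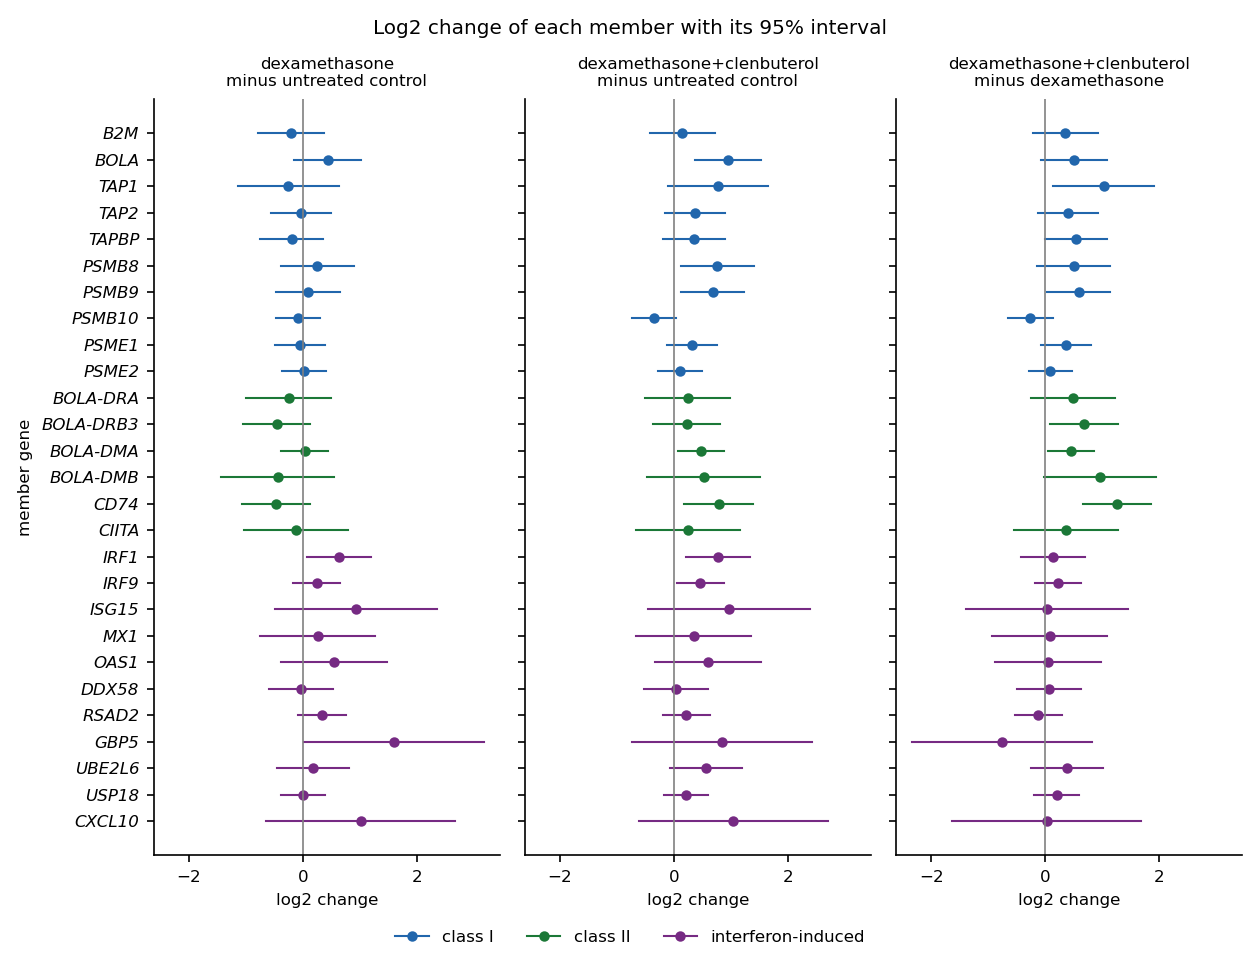
Log2 change of each of the 27 measured members (points) with its 95% interval from the limma fit (lines), in 3 comparisons, with class I genes in blue, class II genes in green and interferon-induced genes in purple. In the middle panel 26 of 27 points lie right of 0, and in the left panel 15 of 27 do.

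Dexamethasone+clenbuterol replicate 4 and dexamethasone replicate 4 weighed on these estimates. Without dexamethasone+clenbuterol replicate 4, the median against controls was 0.31 with 22 of 27 above 0, and 4 members had an unadjusted p under 0.05. Without it the median against dexamethasone was 0.23 with 20 of 27 above 0, and 3 members were higher at an unadjusted p under 0.05. Without dexamethasone replicate 4, the median of that comparison was 0.18 with 19 of 27 above 0, and 2 members were higher at that level. With dexamethasone+clenbuterol replicate 4 and dexamethasone replicate 1 both left out, an alternative chosen after the values were seen, the medians were 0.31 against controls and 0.34 against dexamethasone. Among the 6 arrays of scan day 2 that hold 3 bulls of each treated group, the median of dexamethasone+clenbuterol against dexamethasone was 0.086 with 18 of 27 above 0, and between the remaining bull of each group it was 1.31 with 26 of 27 above 0. The treated groups were on different slides in both sets. Against controls, the median of the 3 dexamethasone+clenbuterol bulls of day 2 was 0.36 over the single control of that day. No dexamethasone+clenbuterol array shared a slide with a control array, so slide and group cannot be told apart in that comparison, within day 2 or over all bulls.

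**Figure D2:**
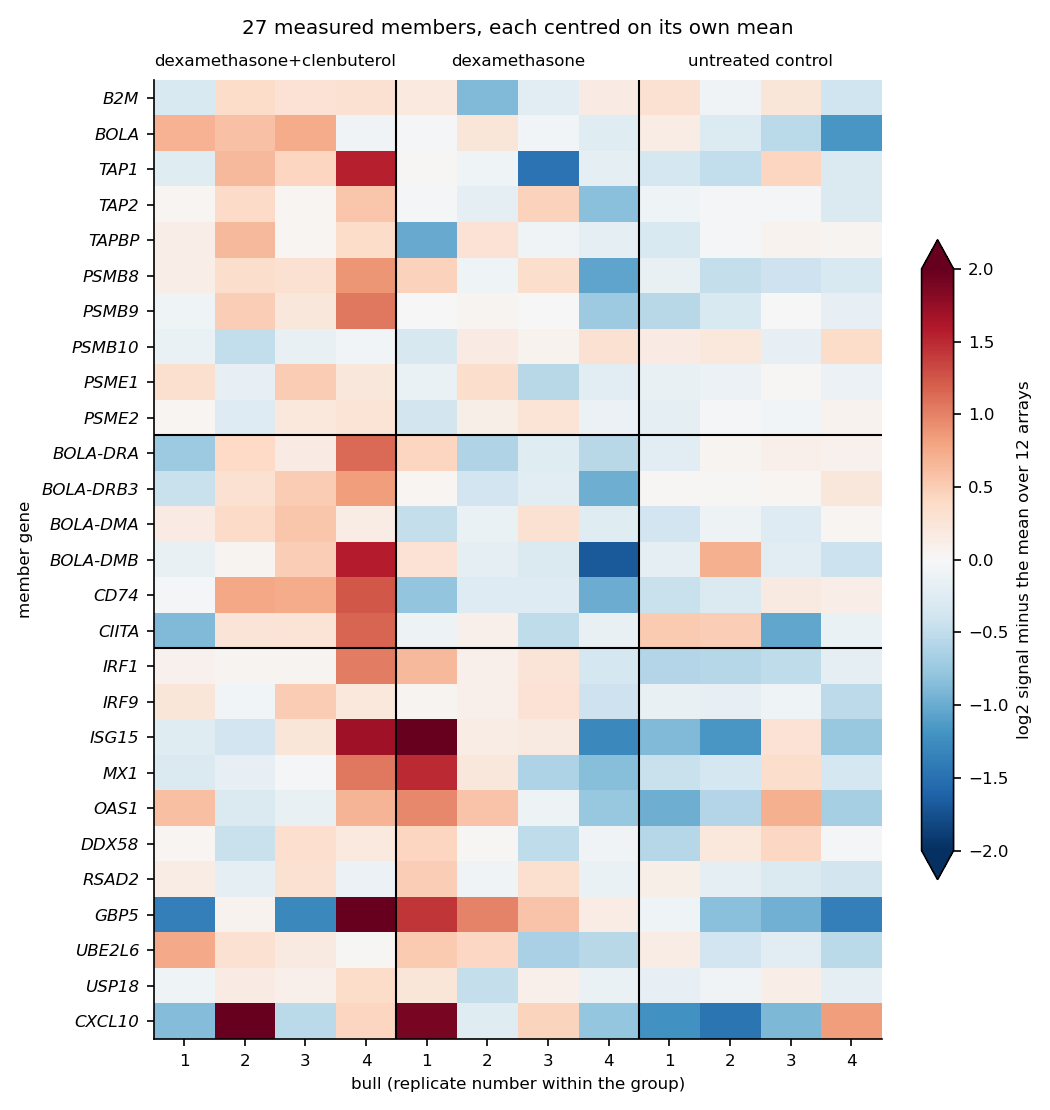
Log2 signal of the 27 measured members (rows) on the 12 arrays (columns), each gene centred on its mean over the arrays, with red above and blue below that mean and colours capped at 2. Horizontal lines part class I, class II and interferon-induced genes; the column of dexamethasone+clenbuterol replicate 4 is red for most class II genes, and that of dexamethasone replicate 1 for ISG15 and MX1.

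None of the 10 class I genes passed the test in any comparison, and their estimates lay mostly above 0 in the dexamethasone+clenbuterol bulls, PSMB10 excepted. Their median log2 change was 0.36 in dexamethasone+clenbuterol against control (9 of 10 above 0), 0.45 in dexamethasone+clenbuterol against dexamethasone (9 of 10) and -0.04 in dexamethasone against control (4 of 10). When each gene was centred on its mean over the 12 arrays and the 10 were averaged, the 4 dexamethasone+clenbuterol arrays lay at 0.06, 0.26, 0.27 and 0.51. The dexamethasone arrays lay at -0.12, 0.00, -0.12 and -0.31, and the control arrays at -0.12, -0.16, -0.04 and -0.22. All 4 dexamethasone+clenbuterol arrays were thus above all 8 others on this mean.

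BOLA encodes a heavy chain of class I, the part that binds the peptide. It lay at 6.86, 6.75, 6.91 and 6.10 in dexamethasone+clenbuterol bulls, at 6.14, 6.41, 6.12 and 5.93 in dexamethasone bulls and at 6.32, 5.89, 5.63 and 5.003 in control bulls. Replicates 1 to 3 of dexamethasone+clenbuterol were above every other bull, and replicate 4 lay among the dexamethasone and control values. The change was 0.95 ± 0.27 (SE) in dexamethasone+clenbuterol against control (limma adjusted p = 0.241), 0.51 ± 0.27 against dexamethasone (adjusted p = 0.531) and 0.44 ± 0.27 in dexamethasone against control (adjusted p = 0.548). Control replicate 4, the 1 control scanned on day 2, was the lowest bull, so the change within that day was larger, at 1.84 over that single control. B2M, the light chain that every class I molecule shares, differed less: 5.35, 6.03, 5.96 and 5.97 in dexamethasone+clenbuterol bulls, 5.86, 4.78, 5.43 and 5.82 in dexamethasone bulls and 5.97, 5.59, 5.91 and 5.26 in controls. The 3 groups overlapped throughout for B2M, with a change of 0.15 ± 0.26 in dexamethasone+clenbuterol against control.

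TAP1 and TAP2 form the transporter that moves peptides into the endoplasmic reticulum, and TAPBP (tapasin) holds class I beside it. TAP1 lay at -1.94, -1.05, -1.28 and -0.15 in dexamethasone+clenbuterol bulls, against -1.68, -1.78, -3.18 and -1.88 in dexamethasone bulls and -2.06, -2.19, -1.27 and -1.99 in controls. The dexamethasone+clenbuterol mean was drawn up by replicate 4 and the dexamethasone mean down by replicate 3, and the groups overlapped. The change of TAP1 against dexamethasone was 1.02 ± 0.40 (adjusted p = 0.381), the largest among class I genes there. TAP2 did not overlap between dexamethasone+clenbuterol bulls, at 0.27, 0.62, 0.27 and 0.78, and controls, at 0.13, 0.21, 0.19 and -0.07, with a change of 0.37 ± 0.24 (adjusted p = 0.555). TAPBP differed by 0.55 ± 0.25 in dexamethasone+clenbuterol against dexamethasone (adjusted p = 0.454).

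PSMB8, PSMB9 and PSMB10 are the catalytic subunits that replace the standard ones in the immunoproteasome, the interferon-induced form of the proteasome. PSMB8 lay at -0.59, -0.37, -0.42 and 0.15 in dexamethasone+clenbuterol bulls, at -0.27, -0.82, -0.37 and -1.78 in dexamethasone bulls and at -0.87, -1.20, -1.15 and -1.04 in controls. All dexamethasone+clenbuterol bulls were above all controls, while the dexamethasone bulls spread over both. The change against controls was 0.76 ± 0.30 for PSMB8 (adjusted p = 0.354) and 0.68 ± 0.26 for PSMB9 (adjusted p = 0.340). PSMB10 was the 1 member below 0 in that comparison: it lay at 2.64, 2.27, 2.62 and 2.72 in dexamethasone+clenbuterol bulls and at 2.92, 2.98, 2.61 and 3.13 in controls, a change of -0.35 ± 0.18 (adjusted p = 0.454). PSME1 and PSME2, the 2 subunits of a proteasome activator, differed by 0.31 ± 0.20 and 0.11 ± 0.18 against controls. A second probe named PSME1 gave 0.12.

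Several of these genes lie next to each other. By gene order in RefSeq (assembly ARS-UCD2.0), PSMB8, TAP1 and PSMB9 follow one another with 0 protein-coding genes between, TAP2 is 1 gene from PSMB8, and BOLA-DMB, beside BOLA-DMA, is 1 gene from PSMB9. There is 1 protein-coding gene between IRF9 and PSME2 and 1 between PSME2 and PSME1. TAP2, PSMB8, TAP1, PSMB9, BOLA-DMB and BOLA-DMA all had log2 changes above 0 in dexamethasone+clenbuterol against control, between 0.37 for TAP2 and 0.77 for TAP1. So did 26 of all 27 members, so this does not set the neighbours apart.

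The class II genes were lower in dexamethasone bulls than in controls by estimate and higher in dexamethasone+clenbuterol bulls than in either. Their median log2 change was -0.35 in dexamethasone against control (1 of 6 above 0), 0.36 in dexamethasone+clenbuterol against control (6 of 6) and 0.58 in dexamethasone+clenbuterol against dexamethasone (6 of 6). None passed the test. Of the 6, 5 had their highest signal of all 12 arrays in dexamethasone+clenbuterol replicate 4, which holds the highest signal for 7.58% of all genes, and 3 had their lowest in dexamethasone replicate 4, which holds the lowest for 9.69%. These are the 2 arrays of the treated groups that were not scanned on day 2, and within that day the median of dexamethasone+clenbuterol against dexamethasone was 0.25 (6 of 6 above 0). Over the single control of day 2, the median of the dexamethasone+clenbuterol bulls of that day was 0.17 (4 of 6 above 0). For dexamethasone+clenbuterol replicate 4 over control replicates 1 to 3 it was 1.17 (6 of 6).

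CD74, the invariant chain that guides class II to endosomes and plugs its groove on the way, had the largest difference between treatments. It lay at 0.08, 0.88, 0.86 and 1.35 in dexamethasone+clenbuterol bulls, against -0.68, -0.15, -0.15 and -0.88 in dexamethasone bulls and -0.33, -0.18, 0.30 and 0.25 in controls. Every dexamethasone+clenbuterol bull was above every dexamethasone bull, and 3 of the 4 were above every control. CD74 was the 1 of 27 members without overlap in that comparison, beside 2.53% of all genes. The change was 1.26 ± 0.28 (95% interval 0.65 to 1.86, 2.39-fold, adjusted p = 0.162), it was 0.93 among the 6 bulls scanned on day 2, and over 24 alternative settings it ran from 0.93 to 1.49 with adjusted p from 0.0900 to 0.355. Against controls CD74 differed by 0.78 ± 0.28 in dexamethasone+clenbuterol bulls (adjusted p = 0.316) and by -0.47 ± 0.28 in dexamethasone bulls (adjusted p = 0.526).

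BOLA-DRA and BOLA-DRB3 encode the alpha and beta chains of the DR molecule. BOLA-DRB3 lay at 1.35, 2.10, 2.30 and 2.64 in dexamethasone+clenbuterol bulls, at 1.84, 1.41, 1.59 and 0.82 in dexamethasone bulls and at 1.83, 1.82, 1.83 and 2.02 in controls. The controls lay close together, and each treated group spread widely enough to overlap them. The change was 0.68 ± 0.27 in dexamethasone+clenbuterol against dexamethasone (adjusted p = 0.387). BOLA-DRA lay at 0.88, 1.99, 1.76 and 2.74 in dexamethasone+clenbuterol bulls, at 2.02, 0.99, 1.35 and 1.05 in dexamethasone bulls and at 1.37, 1.65, 1.70 and 1.69 in controls. It overlapped in every comparison, with a change of 0.49 ± 0.34 against dexamethasone that was 0.09 within scan day 2.

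BOLA-DMA and BOLA-DMB form the molecule that swaps the CD74 remnant for antigen peptides. BOLA-DMA lay at 0.04, 0.26, 0.43 and 0.02 in dexamethasone+clenbuterol bulls, at -0.60, -0.26, 0.17 and -0.37 in dexamethasone bulls and at -0.50, -0.22, -0.37 and -0.08 in controls. It was the class II gene for which replicate 4 of dexamethasone+clenbuterol was not the highest, and no dexamethasone+clenbuterol bull overlapped the controls. The change of BOLA-DMA against controls was 0.48 ± 0.19 (adjusted p = 0.350). BOLA-DMB spread most, from -0.66 in dexamethasone replicate 4 to 2.60 in dexamethasone+clenbuterol replicate 4, and its change between these groups was 0.96 ± 0.45 over all bulls and 0.20 within day 2. CIITA, the coactivator that switches class II genes on, differed by 0.36 ± 0.42 in the same comparison.

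**Figure D3:**
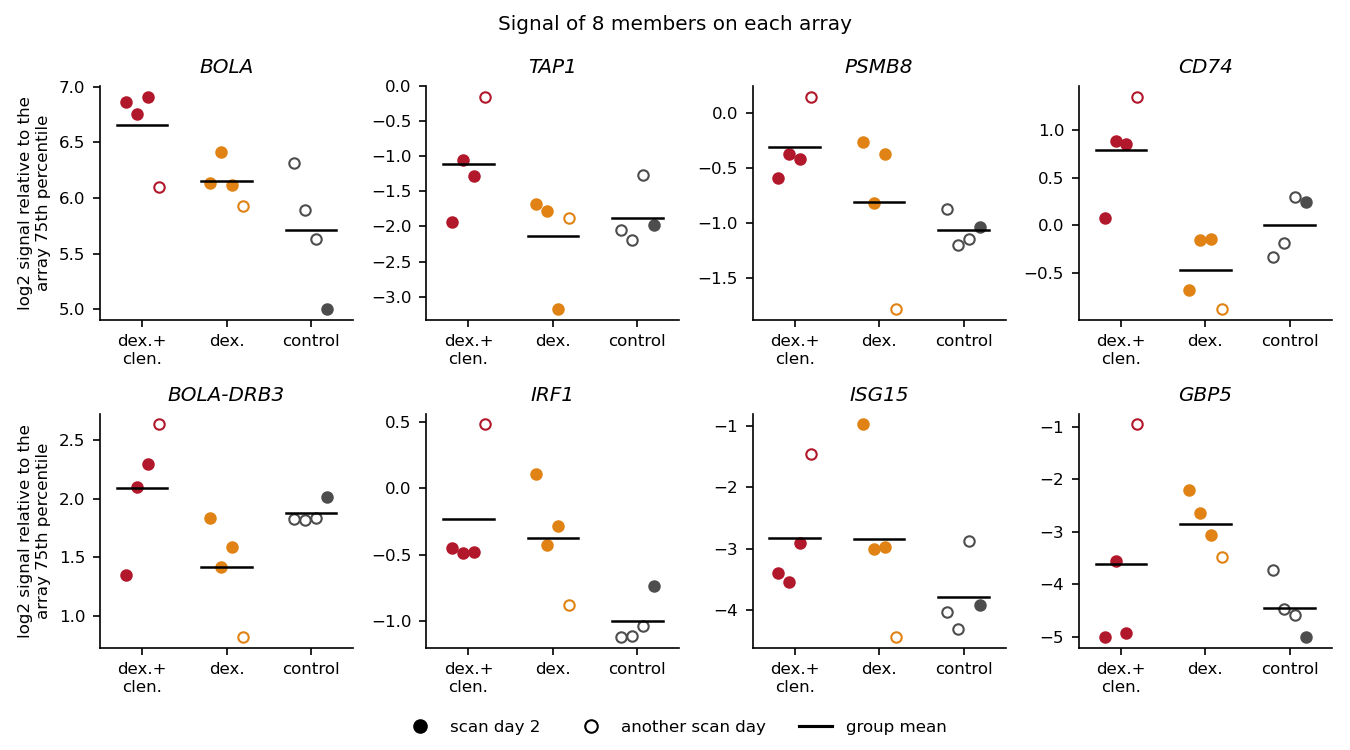
Log2 signal relative to the array's 75th percentile for 8 members, 1 point per bull, in dexamethasone+clenbuterol (dex.+clen.), dexamethasone (dex.) and untreated control bulls, with the group mean as a line; filled points were scanned on day 2. CD74 is higher in every dexamethasone+clenbuterol bull than in every dexamethasone bull, and ISG15 is highest in 1 bull of each treated group.

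The interferon-induced genes had estimates above 0 in both treated groups against controls, with wide spread. Their median log2 change was 0.57 in dexamethasone+clenbuterol against control (11 of 11 above 0) and 0.34 in dexamethasone against control (10 of 11), and it was 0.07 in dexamethasone+clenbuterol against dexamethasone (9 of 11). None passed the test. Within scan day 2 the median of dexamethasone+clenbuterol against dexamethasone was -0.27 (4 of 11 above 0), and between the remaining bull of each group it was 1.201 (11 of 11). The median of dexamethasone against control was 0.64 over the single control of day 2 (10 of 11 above 0), and -0.10 for dexamethasone replicate 4 over control replicates 1 to 3 (3 of 11). These medians thus lay on opposite sides of 0 in the 2 sets of bulls. The mean of the 11 centred genes was 0.75 in dexamethasone+clenbuterol replicate 4 and 0.94 in dexamethasone replicate 1. The other treated arrays lay between -0.09 and 0.14 in dexamethasone+clenbuterol and between -0.47 and 0.16 in dexamethasone, and the controls between -0.51 and -0.10. Control replicate 3 was the highest control for 6 of the 11.

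IRF1 is a transcription factor that interferon gamma induces and that acts on class I and immunoproteasome promoters. It lay at -0.45, -0.49, -0.48 and 0.48 in dexamethasone+clenbuterol bulls, at 0.11, -0.43, -0.29 and -0.88 in dexamethasone bulls and at -1.12, -1.11, -1.04 and -0.74 in controls. All dexamethasone+clenbuterol bulls and 3 of 4 dexamethasone bulls were above all controls. The change was 0.77 ± 0.26 in dexamethasone+clenbuterol (adjusted p = 0.286) and 0.63 ± 0.26 in dexamethasone (adjusted p = 0.338) against controls. Over the 3 dexamethasone+clenbuterol bulls and the single control of scan day 2 it was 0.26. IRF9, the DNA-binding part of the complex that type I interferon activates, also did not overlap between dexamethasone+clenbuterol bulls and controls, and differed by 0.46 ± 0.19 (adjusted p = 0.365).

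ISG15 is a ubiquitin-like protein that is joined to other proteins after interferon, UBE2L6 is the enzyme that conjugates it and USP18 removes it. ISG15 lay at -3.39, -3.54, -2.90 and -1.45 in dexamethasone+clenbuterol bulls, at -0.97, -3.00, -2.98 and -4.44 in dexamethasone bulls and at -4.03, -4.31, -2.87 and -3.91 in controls. One bull of each treated group stood above the rest of its group, and the dexamethasone bulls held both the highest and the lowest value of all 12. The change was 0.96 ± 0.65 in dexamethasone+clenbuterol (adjusted p = 0.572) and 0.93 ± 0.65 in dexamethasone (adjusted p = 0.612) against controls. UBE2L6 differed by 0.57 ± 0.29 in dexamethasone+clenbuterol against controls and by 0.18 ± 0.29 in dexamethasone. USP18 differed by at most 0.21 in any of the 3 comparisons.

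MX1, a GTPase that blocks viral replication, lay at -3.75, -3.62, -3.50 and -2.41 in dexamethasone+clenbuterol bulls, at -1.97, -3.23, -4.08 and -4.32 in dexamethasone bulls and at -3.91, -3.81, -3.11 and -3.81 in controls. Its 2 highest values were again dexamethasone replicate 1 and dexamethasone+clenbuterol replicate 4, and its change against controls was 0.34 ± 0.46 in dexamethasone+clenbuterol and 0.26 ± 0.46 in dexamethasone. Dexamethasone replicate 1 was the highest of the 12 bulls for ISG15, MX1, OAS1, DDX58 and RSAD2, that is for 5 of 11 interferon-induced genes, and it was the highest for 9.13% of all genes. The same bull was the lowest for 16.4% of all genes. Its centred mean of the 15 skeletal muscle fibre markers was -0.50, the lowest of the 12. OAS1 makes a second messenger that activates RNA decay, DDX58 (RIG-I) senses viral RNA, and RSAD2 (viperin) blocks viral budding and RNA synthesis. RSAD2 differed by 0.34 ± 0.19 in dexamethasone against controls (adjusted p = 0.508), and OAS1 was well above background on only 4 arrays. Dexamethasone+clenbuterol replicate 4 was not the highest of its group for DDX58 or RSAD2, which were highest in replicate 3.

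GBP5 is a GTPase induced by interferon gamma, and GBP2 has no probe apart from it: the same probe carries GBP5 by gene number and GBP2 by its description. It lay at -4.99, -3.56, -4.92 and -0.96 in dexamethasone+clenbuterol bulls, at -2.20, -2.65, -3.06 and -3.49 in dexamethasone bulls and at -3.72, -4.47, -4.59 and -5.00 in controls. Every dexamethasone bull was above every control, and the dexamethasone+clenbuterol bulls held both the top value and values among the lowest. The change in dexamethasone against controls was 1.60 ± 0.73 (95% interval 0.02 to 3.18, adjusted p = 0.396), the largest of any member in any comparison. It was 0.69 with normexp background correction, and it was 2.17 with scan day as a 2-level block, so its size depends on the background correction and on the scan day term. CXCL10, a chemokine that draws T cells, spanned 3.88 over the 12 bulls with its highest values in dexamethasone+clenbuterol replicate 2 and dexamethasone replicate 1.

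The 11 members with no estimate were all of the interferon-induced group. IRF7 and IFI6 had no probe under that name in the files, and GBP2 has been described with GBP5. The other 8 were below the filter: STAT2, OAS2, IFIT1, IFIT2, IFIT3, IFI44 and IFIH1 were not well above background on any array, and MX2 was on 2 arrays, 1 in each treated group. This gives only an upper bound on their signal in these muscles. Of 2 probes named STAT2, the description of one matches the human gene IL23A.

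**Figure D4:**
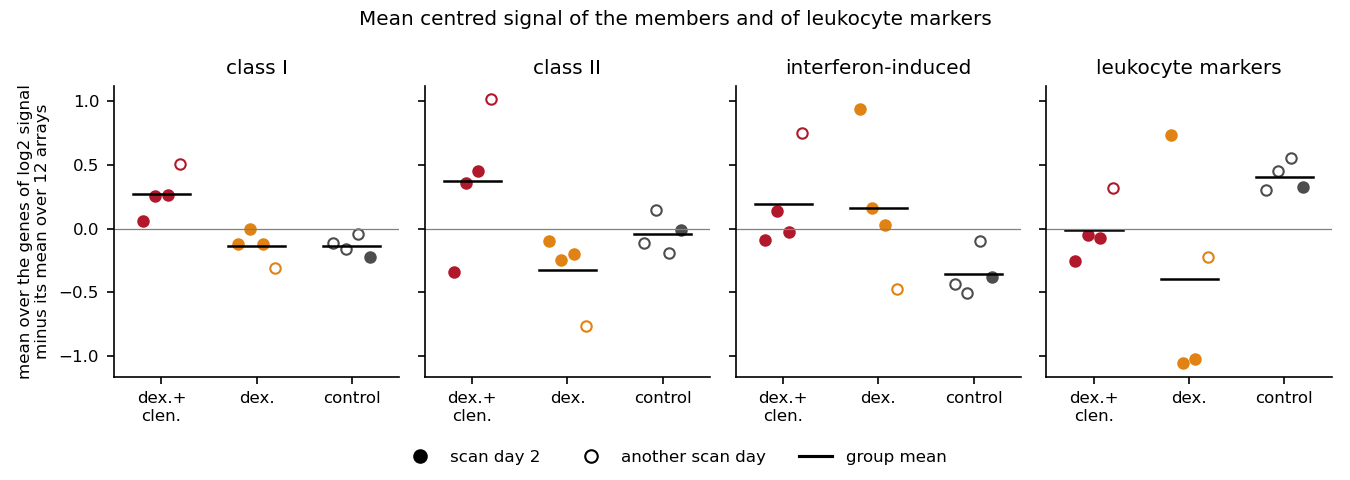
Mean over the genes of a list of log2 signal minus each gene's mean over 12 arrays, 1 point per bull, for class I (10 genes), class II (6), interferon-induced members (11) and leukocyte markers (18), with the group mean as a line and filled points for scan day 2. The class I means of the 4 dexamethasone+clenbuterol bulls (0.06 to 0.51) lie above those of the 8 other bulls, and the leukocyte means of the dexamethasone bulls run from -1.06 to 0.73.

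Markers of leukocytes, which carry much class I and class II, did not follow the members in all groups. Of 22 leukocyte markers 18 were measured, and CD3D, ITGAM and MS4A1 (a T cell, a myeloid and a B cell marker) were below the filter. Only 8 of the 18 were well above background on all 12 arrays, so values of the others are near the floor on some arrays. The mean of the 18, centred as above, ran from -0.26 to 0.32 in dexamethasone+clenbuterol bulls, from -1.06 to 0.73 in dexamethasone bulls and from 0.30 to 0.55 in controls. Their median log2 change was -0.34 in dexamethasone+clenbuterol against control (3 of 18 above 0), where the members' was 0.46, and -0.65 in dexamethasone against control (5 of 18). CD3E, a T cell receptor chain, was the 1 leukocyte marker called, lower in dexamethasone bulls than in controls (log2 change -1.74, adjusted p = 0.0311). In dexamethasone+clenbuterol against dexamethasone the markers' median was 0.25 (12 of 18 above 0), the same side as class II. Dexamethasone replicate 1 was the highest of the 12 bulls for 11 of the 18 and dexamethasone+clenbuterol replicate 4 the highest of its group for 12, and these are the 2 bulls with the highest interferon-induced signal. The 13 endothelial markers had a median change of 0.43 in dexamethasone+clenbuterol against control, which was 0.15 over the single control of day 2 and 0.18 with scan day as a 2-level block. Their centred mean ran from 0.08 to 0.32 in dexamethasone+clenbuterol bulls, from -0.25 to 0.32 in dexamethasone bulls and from -0.40 to 0.06 in controls.

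Fibroblast markers lay on the same side as class II in both comparisons of dexamethasone bulls. All 13 of them, among them COL1A1, COL3A1 and PDGFRA, were well above background on all 12 arrays. Their median log2 change was 0.73 in dexamethasone+clenbuterol against dexamethasone (13 of 13 above 0), where that of class II was 0.58, and -1.19 in dexamethasone against control (0 of 13), where that of class II was -0.35. Against controls it was -0.63 in dexamethasone+clenbuterol bulls (3 of 13), the side opposite to class II. None of the 13 was called. Their centred mean ran from -0.54 to 0.62 in dexamethasone+clenbuterol bulls, from -1.37 to 0.51 in dexamethasone bulls and from 0.37 to 0.79 in controls. Dexamethasone replicate 4 was the lowest of the 12 bulls for 9 of 13 and dexamethasone+clenbuterol replicate 4 the highest of its group for 8, the 2 arrays that also held the lowest signal for 3 and the highest for 5 of the 6 class II genes. Within scan day 2 the median of dexamethasone+clenbuterol against dexamethasone was 0.29 (10 of 13 above 0), beside 0.25 for class II. The 11 smooth muscle and pericyte markers had a median of 0.35 in dexamethasone+clenbuterol against control (7 of 11 above 0) and 0.26 against dexamethasone (9 of 11), and dexamethasone+clenbuterol replicate 4 was the highest of the 12 bulls for 6 of them. Their centred mean ran from -0.11 to 0.51 in dexamethasone+clenbuterol bulls, from -0.19 to 0.16 in dexamethasone bulls and from -0.27 to 0.04 in controls. The part of any of these cell types in the members' values was not tested.

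Some probes for MHC genes differed widely between bulls of one group. The files name 26 probes for class I or class II chains, of which 9 are class I and 17 class II. Of the class I probes, 4 were well above background on all 12 arrays, 2 on some and 3 on none, and of the class II probes 7 were on all and 10 on some. The chains are families of near-identical genes, each with many alleles, and cattle haplotypes are known to carry different sets of class I and DQ genes. A short probe may bind one allele and not another, so a level from these probes is uncertain for any single gene, BOLA and BOLA-DRB3 included. The part of allele differences in the values was not tested.

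The signal of 4 MHC probes fell into 2 separate levels, more than 4 log2 units apart with at least 3 bulls on each side. Over all 21475 probes only 5 did so (0.0233%), and the other probe is named BARX2. The probe of BOLA-NC1, a non-classical class I gene, lay at 4.06 and 3.04 in dexamethasone+clenbuterol replicates 2 and 4, at 0.87 and 0.93 in dexamethasone replicates 1 and 3 and at 3.19, 2.63 and 3.59 in control replicates 2 to 4. In the other 5 bulls it was not well above background, at -6.18 or less. A probe of BOLA-DQA2 was well above background in 2 dexamethasone+clenbuterol, 3 dexamethasone and 3 control bulls, at -0.45 or more, and not in the other 4 bulls. Another probe of that name, without 2 such levels, was well above background in only 1 bull, control replicate 4, at -4.22. The probes of BOLA-DQA5 and BOLA-DQB were well above background in the same 3 bulls, 1 in each group: dexamethasone+clenbuterol replicate 2, dexamethasone replicate 3 and control replicate 2. Both levels occurred in every group for all 4 probes. The group means of the BOLA-NC1 probe differ by -3.87 in dexamethasone against control although each group holds bulls at both levels.

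**Figure D5:**
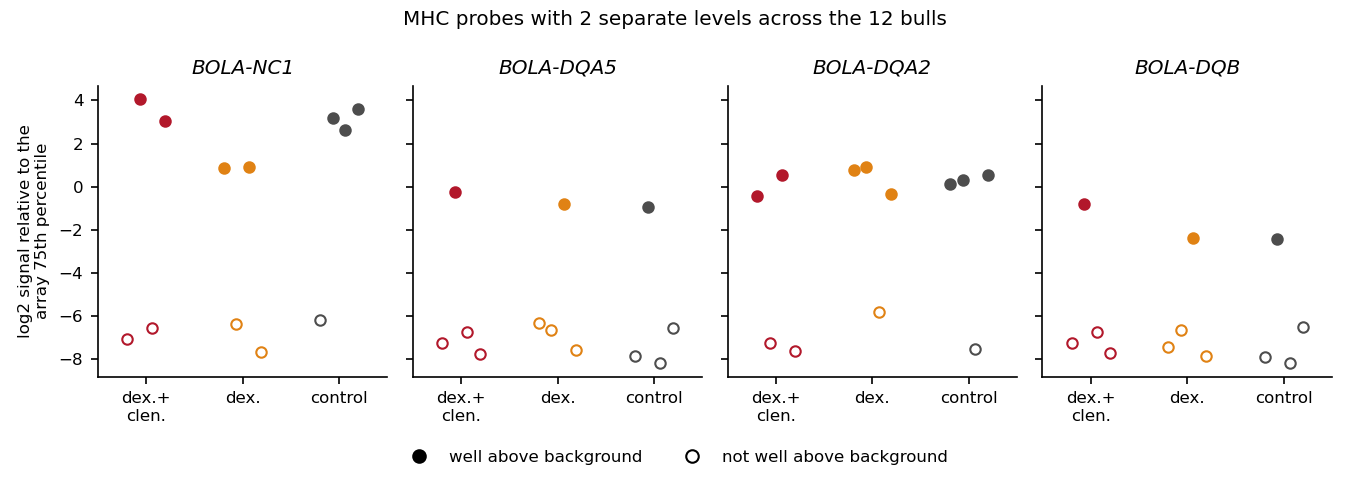
Log2 signal relative to the array's 75th percentile for the 4 MHC probes with 2 separate levels, 1 point per bull, in dexamethasone+clenbuterol (dex.+clen.), dexamethasone (dex.) and untreated control bulls; filled points were well above background. Each group holds bulls at both levels for every probe, and BOLA-DQA5 and BOLA-DQB are filled in the same 3 bulls.

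Other genes of the same pathways also gave no call, and their medians lay nearer 0 in both comparisons of the dexamethasone+clenbuterol bulls. A list of 114 further genes (interferon receptors and their kinases and brakes, IRF and RFX factors, RNA and DNA sensing, peptide loading and class II handling, and more interferon-induced genes) had 97 with a probe and 78 measured. None of the 78 was called by limma in any comparison. Their median log2 change was 0.23 in dexamethasone+clenbuterol against control (53 of 78 above 0), 0.06 in dexamethasone+clenbuterol against dexamethasone (46 of 78) and 0.12 in dexamethasone against control (48 of 78). At an unadjusted p under 0.05, 13, 4 and 12 were higher and 1, 3 and 2 lower in these comparisons.

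The clearest of them was IL10RB, the receptor chain that IL10 and the lambda interferons share. It lay at -0.57, -0.45, -0.43 and -0.37 in dexamethasone+clenbuterol bulls, at -0.55, -0.73, -0.41 and -0.82 in dexamethasone bulls and at -1.26, -1.02, -1.30 and -0.85 in controls. All 8 treated bulls were above all 4 controls, by changes of 0.65 ± 0.15 in dexamethasone+clenbuterol (adjusted p = 0.181) and 0.48 ± 0.15 in dexamethasone (adjusted p = 0.209). The highest control, at -0.85, was replicate 4, the 1 control scanned on day 2. The lowest treated bull, dexamethasone replicate 4, lay close to it at -0.82. MAVS, the mitochondrial adaptor of RNA sensing, and HSPA5, a chaperone of the endoplasmic reticulum, had no overlap between dexamethasone+clenbuterol bulls and controls, with changes of 0.84 ± 0.23 (adjusted p = 0.234) and 1.29 ± 0.39 (adjusted p = 0.258). In dexamethasone against controls TICAM1, the adaptor of the RNA receptor TLR3, differed by 0.70 ± 0.23 (adjusted p = 0.227) and SOCS3, a brake on cytokine signalling, by 0.67 ± 0.23 (adjusted p = 0.239). In dexamethasone+clenbuterol against dexamethasone, RFXANK, a subunit of the complex that binds class II promoters, differed by 0.67 ± 0.23 (adjusted p = 0.314). PDIA3, a member of the class I peptide loading complex, differed there by 0.65 ± 0.25 (adjusted p = 0.375). DHX58, an RNA helicase that tunes RIG-I signalling, differed there by 0.95 ± 0.35 (adjusted p = 0.357). DHX58 was well above background on only 5 arrays: 3 dexamethasone+clenbuterol, 1 dexamethasone and 1 control. It thus passed the filter on dim probes mainly through the group in which it was higher.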

How the data were processed

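Per the file headers, Agilent Feature Extraction 9.5.1.1 made the deposited scanner files, whose processed signal is an intensity on a linear scale. The authors' value table holds intensity in the same order on every array (Spearman correlation of at least 0.999996), and how it was scaled is not stated in the file. Here the processed signal was put on the log2 scale, scaled to the 75th percentile of each array (control spots aside), and averaged over the spots of a probe, leaving out outlier spots. Of 21475 probes, 14703 passed the filter on dim probes (at least 4 of 12 arrays), 13653 genes in all. Probe names were updated through a RefSeq gene table (ARS-UCD2.0): 9986 by gene number, 3410 by accession, 395 by symbol and 3665 by the human match in the description, while 4019 kept the file's name. limma 3.58.1 in R 4.3.3 was fitted to all 12 arrays with 3 group means (lmFit, eBayes, two-sided, Benjamini-Hochberg within each comparison over all genes). The ± after a change is the standard error of that fit, with 4 bulls per group. Each array is a different bull, and 4 arrays a group limit the precision. Alternatives were other background corrections, scalings, filters, batch terms and array weights, and each array left out in turn. The members and lists were chosen with earlier results of these data known. Members chosen for naming are those of smallest unadjusted p per subgroup and comparison, those with an array far from its group, and 6 fixed genes. Only some of them are given array by array. TAP2 and PSMB10, which are not among them, are also given by array in part. Of further pathway genes, the 3 of smallest unadjusted p per comparison are named. Others (CIITA, TAP2, PSMB10, PSME2, OAS1, DDX58, CXCL10, BARX2 and the MHC probes) were chosen after their values were seen.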

Additional observations from a re-analysis of the deposited data

Results flagged for a closer look

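Each measured member was examined in each group of 4 bulls for a bull far from the other 3 (Dixon's test at the 95% level). Of 81 such groups 8 stood out, and chance flags about 1 in 20. Among dexamethasone+clenbuterol bulls, replicate 1 was lowest for B2M at 5.35 and replicate 4 was highest for IRF1 at 0.48. Among dexamethasone bulls, replicate 3 was lowest for TAP1 at -3.18 and replicate 4 lowest for PSMB9 at -1.64. Among controls, replicate 3 was highest for PSME1 at 2.06 and for MX1 at -3.11, replicate 1 was lowest for BOLA-DRA at 1.37 and replicate 4 was highest for BOLA-DRB3 at 2.02.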

How the results depend on the processing

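No member was called under any of 24 alternatives, in any comparison; the smallest adjusted p was 0.0900 for CD74 in dexamethasone+clenbuterol against dexamethasone (array weights) and for GBP5 in dexamethasone against control (only those 2 groups fitted). The members' median log2 change against control kept to between 0.31 and 0.49 in dexamethasone+clenbuterol bulls and between -0.02 and 0.14 in dexamethasone bulls. In dexamethasone+clenbuterol against dexamethasone it was 0.086 with scan day as a fixed block and between 0.18 (without dexamethasone replicate 4) and 0.44 with 1 array left out. Of 1434 values of the 20 members chosen for naming under alternatives, 13 moved by over 1 SD between bulls, 11 of them with scan day as a fixed block, and none was called. Counts over all genes varied more. Against control, dexamethasone called 84 genes, but 25 with no filter on dim probes, 13 with a 2-level scan day block, 0 with scan day as a fixed block, 286 with array weights, 24 to 261 with 1 array left out (261 without dexamethasone replicate 1) and 329 without dexamethasone replicate 1 and dexamethasone+clenbuterol replicate 4 together. Dexamethasone+clenbuterol called 6 against control, but 131 with array weights, 38 without those 2 arrays, 3 with quantile normalization or only 2 groups fitted, 2 with probes averaged, 0 with no filter, the filter on all 12 arrays or any batch term, and 0 to 11 with 1 array left out. Against dexamethasone it called 2, but 1 with normexp or the filter on all 12 arrays, 0 with quantile normalization, the authors' value table, no filter, probes averaged, any batch term, only 2 groups or without those 2 arrays, and 0 to 74 with 1 array left out (74 without dexamethasone replicate 1, 15 without dexamethasone+clenbuterol replicate 2). The cause of these moves was not tested. Each array is a different bull and the labels give no pairing between groups, so no paired analysis was run. The labels give no replicate numbers either, and those used here follow the order of the samples within each group. With 4 bulls per group, and 11 of the 22 interferon-induced members without an estimate of their own, small changes could not be detected.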
